A study of Mus musculus with 18 samples.

Results

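The genes described here are 10 NRF2 target and redox genes in lung and lung tumors of B6C3F1/N mice: the NRF2 gene Nfe2l2 itself and Nqo1, Hmox1, Me1, Slc7a11, Gclc, Gclm, Gsr, Txnrd1 and Srxn1. They were taken as a list of known NRF2 targets, chosen with earlier results of these data known. All 10 were measured among the 18193 genes of the table. For each gene the probe set with the highest mean was used among those that carry only its symbol, 21 probe sets in all, and the others served as a check. The study hybridized 18 arrays, 6 of lung from vehicle controls, 6 of spontaneous lung tumors and 6 of lung tumors from mice exposed to antimony trioxide, called treated tumors here. Mice entered the study at 5 to 6 weeks of age and breathed an aerosol of 0 (none), 3, 10 or 30 mg/m3 over as many as 105 weeks, with 60 of each sex at each level. No allele or strain other than B6C3F1/N is named, and all 3 groups share this background. The animal, the sex and the exposure level behind an array are not given, nor the exposure of the mice with spontaneous tumors. Tumors were cut out of the surrounding lung and frozen, and the control samples are labelled as lung. Nothing states that replicates of a group came from separate animals, so a p-value reflects only how far these samples vary, which may be technical variation.

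NRF2 is a transcription factor that KEAP1 holds at a low level by marking it for degradation, and electrophiles and oxidants release it from this control. With small MAF proteins it then binds antioxidant response elements and raises genes for glutathione synthesis, the thioredoxin system, quinone and haem breakdown and NADPH supply. In lung it is known for protection against inhaled oxidants and metals, and in lung cancers for stable activation through changes in KEAP1 or NRF2. Because KEAP1 acts on the protein, the Nfe2l2 transcript is not by itself a measure of NRF2 activity.

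Control replicate 5 and spontaneous replicates 5 and 6 stood apart from the rest and were left out, which leaves 5 control, 4 spontaneous and 6 treated arrays. The median correlation of each of these 3 arrays with the others was 0.301 to 0.476, against 0.92 to 0.973 for the 15 kept. Their values spread less, with an SD over all probe sets of 1.28 to 1.48 against 2.35 to 2.45. Values are deposited log2 expression, and each difference is the group named first minus the other. With all 18 arrays in the fit none of the 10 genes was called in any comparison (limma, adjusted p under 0.05), so the calls below rest on leaving these arrays out or giving them little weight: with array weights over all 18 arrays 4 were called in spontaneous and 6 in treated tumors.

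Of the tissue markers, 7 of 8 alveolar type 2 markers rose in both tumor groups, and the mean of the list was 11.71 to 12.53 in control, 13.19 to 13.33 in spontaneous and 12.97 to 13.19 in treated arrays. All 6 ciliated cell markers and all 8 endothelial markers fell in both. In whole tissue, fewer cells of a type and less RNA per cell cannot be told apart. Control arrays also differed from tumor arrays in technical measures: the bioB hybridization control, a spiked bacterial transcript, was 10.81 to 11.4 in control and 10.31 to 10.75 in tumor arrays. The Gapdh 3′ minus 5′ difference, a measure of RNA integrity, was 1.84 to 2.21 in control, 1.12 to 1.4 in spontaneous and 1.09 to 1.97 in treated arrays. The same difference for actin overlapped between control and both tumor groups. It was -0.236 to -0.174 in control, -0.377 to -0.233 in spontaneous and -0.33 to -0.167 in treated arrays. The part of tissue makeup and of these measures in the differences below was not tested.

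Each tumor group differed from control lung in part of the list, and not in one direction. In spontaneous tumors 4 of the 10 genes changed: Hmox1 and Me1 rose, and Nqo1 and Gclm fell. Over all genes 33% were called in that comparison, 20.1% higher and 12.9% lower. In treated tumors 5 changed: Hmox1, Me1, Slc7a11 and Nfe2l2 rose and Nqo1 fell, where 38.7% of all genes were called, 23.7% higher and 15% lower. The median difference of the 10 genes was 0.14 in spontaneous and 0.54 in treated tumors, beside 0.12 and 0.09 over all genes. Both comparisons use the same control arrays. The list was chosen with earlier results of these data known, so its counts and medians are not independent of the data. Between treated and spontaneous tumors no gene of the list was called, where 0.055% of all genes were.

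**Figure D1:**
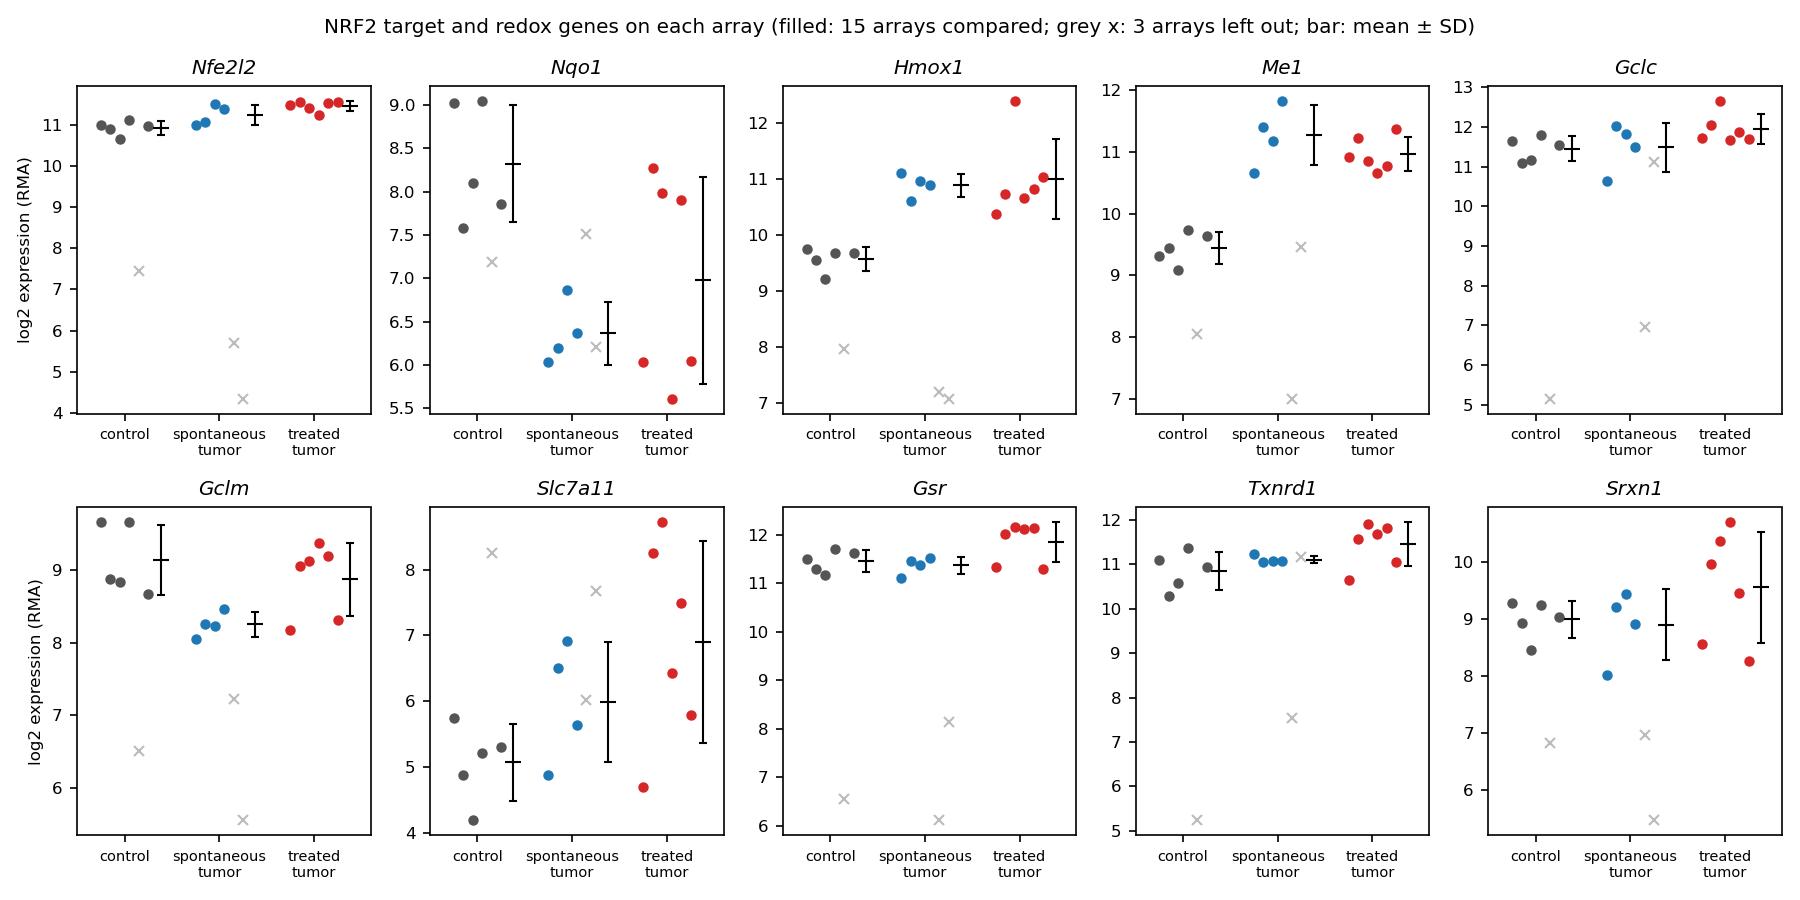
Deposited log2 expression (vertical axis, a separate scale for each gene) of the 10 genes on every array, by group (horizontal axis); filled points are the 15 arrays compared, grey crosses the 3 arrays left out, and bars the mean ± SD. Among the 15 arrays compared, Hmox1 and Me1 lie higher in every tumor array than in every control array, while Nqo1 and Slc7a11 spread widely among the 6 treated tumors.

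Nfe2l2 (chr2:75675513-75704663 in GRCm38.p6, as are the other positions) encodes NRF2. It measured 10.99, 10.90, 10.66, 11.11 and 10.96 in control replicates 1, 2, 3, 4 and 6, and 10.98, 11.06, 11.49 and 11.37 in spontaneous replicates 1 to 4. Treated tumors ran from 11.24 to 11.55 with a median of 11.5. Every treated array lay above every control array, while spontaneous replicates 1 and 2 lay within the control range. Nfe2l2 rose in treated tumors by 0.53 ± 0.11 (SE), a 1.44-fold change (limma, Benjamini-Hochberg adjusted p = 0.00182). In spontaneous tumors the difference of 0.30 ± 0.13 was not called (limma adjusted p = 0.0821). The exact permutation p was 0.00216 for treated tumors, the smallest the design can give, and 0.0714 for spontaneous tumors. A second Nfe2l2 probe set gave 0.72 ± 0.36 for treated tumors, which was not called (limma adjusted p = 0.129). For spontaneous tumors it gave 0.08 ± 0.39 (limma adjusted p = 0.899). Without spontaneous replicate 1 the spontaneous difference of the probe set used was 0.38 and was called (limma adjusted p = 0.0415). It was also called with array weights over the 15 arrays (limma adjusted p = 0.0186).

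The RefSeq promoter table (GRCm38.p6) held a window for 7 of the 10 genes: Nfe2l2, Nqo1, Me1, Slc7a11, Gclm, Txnrd1 and Srxn1, with 10 windows in all. The 250 bases before the start were searched on both strands for TGACNNNGC, the core of the antioxidant response element, because it is the element through which NRF2 is known to act on this list. It was found in 1 window each of Nfe2l2, Gclm and Txnrd1, 3 of 10 windows, and 10.2% of the 32851 windows of all genes did. They are shown because they place the element beside genes that behaved differently on the arrays: Nfe2l2 rose in treated tumors, Gclm fell in spontaneous tumors and Txnrd1 was not called in either. Each is printed 5′ to 3′ on the gene's strand, with the match in capitals. The window of Nfe2l2 is chr2:75704664-75704913 on the minus strand, that of Gclm chr3:122245307-122245556 on the plus strand and that of Txnrd1 chr10:82858956-82859205 on the plus strand.
Nfe2l2: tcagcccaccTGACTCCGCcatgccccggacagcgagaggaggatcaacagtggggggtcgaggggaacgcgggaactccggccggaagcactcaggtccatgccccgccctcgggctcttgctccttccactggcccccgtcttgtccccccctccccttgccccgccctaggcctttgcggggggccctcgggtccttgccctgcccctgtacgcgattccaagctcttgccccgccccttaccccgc
Gclm: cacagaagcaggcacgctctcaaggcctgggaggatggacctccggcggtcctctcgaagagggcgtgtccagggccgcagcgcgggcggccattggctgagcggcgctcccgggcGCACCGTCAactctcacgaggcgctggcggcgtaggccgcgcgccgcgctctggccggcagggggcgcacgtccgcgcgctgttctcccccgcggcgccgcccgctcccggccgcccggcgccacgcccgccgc
Txnrd1: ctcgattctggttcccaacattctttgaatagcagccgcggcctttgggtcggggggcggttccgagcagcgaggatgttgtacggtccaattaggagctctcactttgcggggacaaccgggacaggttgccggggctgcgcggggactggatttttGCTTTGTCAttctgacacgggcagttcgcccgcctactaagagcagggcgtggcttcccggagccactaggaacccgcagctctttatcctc

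The match begins 240 bases before the start in Nfe2l2, 134 in Gclm and 92 in Txnrd1, and in Gclm and Txnrd1 it lies on the other strand, where it reads TGACGGTGC and TGACAAAGC. Each start is the one its window ends at, which need not be the outer end of the gene. The Txnrd1 window lies inside the gene, and the window at the gene's outer end, chr10:82833701-82833950, held no match to TGACNNNGC. The Gclm window ends at 122245556, past the gene start of 122245487 given below. After these windows had been read, the looser TGANNNNGC, which holds the first motif within it, was also searched. It was found in 6 of the 10 windows, which belong to 5 genes, Nfe2l2, Gclm, Txnrd1, Slc7a11 and Srxn1, and in 35.2% of all windows. The Srxn1 window held 3 matches, which begin 158, 57 and 45 bases before the start and read GCCGACTCA and GCAAATTCA, both matches on the other strand, and TGAGTCAGC. A match is a string of letters and not a measured binding site, and no match says only that these letters are not in the window.

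Nqo1 (chr8:107388225-107403205) encodes NAD(P)H quinone dehydrogenase 1, which reduces quinones by a route that avoids semiquinone radicals and is widely used as a readout of NRF2. Control replicates 1, 2, 3, 4 and 6 measured 9.03, 7.58, 8.10, 9.05 and 7.86. Spontaneous replicates 1 to 4 measured 6.03, 6.19, 6.86 and 6.37, all below the lowest control. Treated replicates 1 to 6 measured 6.03, 8.27, 7.99, 5.61, 7.90 and 6.05, so replicates 1, 4 and 6 lay below all controls and replicates 2, 3 and 5 among them. Nqo1 fell in spontaneous tumors by 1.96 ± 0.54 on the log2 scale, to 0.257 of the control level (limma adjusted p = 0.0111). In treated tumors it fell by 1.35 ± 0.48 (limma adjusted p = 0.0383), and the exact permutation p was 0.0693.

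The treated call for Nqo1 was lost without any one of control replicates 1, 3 or 4 or treated replicates 1, 4 or 6, where the limma adjusted p was 0.0567 to 0.0987, and in a fit of the 2 groups alone (limma adjusted p = 0.0644). With the mean of 4 Y-linked genes as a covariate it was -0.94 (limma adjusted p = 0.31) in treated tumors and -1.67 (limma adjusted p = 0.0609) in spontaneous tumors. That Y-linked mean was 8.694 to 8.89 in control, 8.914 to 9.411 in spontaneous and 8.602 to 9.495 in treated arrays. Control and spontaneous arrays did not overlap in it, so such a fit cannot fully separate the covariate from the group. The mean of the ciliated markers was 9.52 to 11.01 in control, 5.44 to 6.78 in spontaneous and 5.44 to 6.39 in treated arrays, and that of the 6 club cell markers 13.36 to 13.84, 8.4 to 11.59 and 7.69 to 10.8. Control replicates 1 and 4, the highest for Nqo1, were also the highest controls for both marker lists. Their ciliated means were 10.65 and 11.01 and their club means 13.74 and 13.84. Among tumor arrays the order was mixed. Treated replicates 2 and 3 were the highest tumor arrays for Nqo1 (8.27 and 7.99). Their ciliated means were 5.44 and 5.63 and their club means 9.05 and 7.69. Spontaneous replicate 2 had the highest ciliated and club means among tumors (6.78 and 11.59), with Nqo1 at 6.19. Treated replicate 5 had the highest of both means among treated tumors (6.39 and 10.8), with Nqo1 at 7.9. The part of ciliated and club cells in the Nqo1 difference was not tested.

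Hmox1 (chr8:75093618-75100593) encodes haem oxygenase 1, which splits haem into biliverdin, iron and carbon monoxide and is abundant in macrophages. It measured 9.75, 9.56, 9.21, 9.68 and 9.69 in control replicates 1, 2, 3, 4 and 6 and 11.11, 10.62, 10.96 and 10.89 in spontaneous replicates 1 to 4. Treated tumors ran from 10.38 to 12.4 with a median of 10.78. No tumor array reached down to the highest control. The gene rose by 1.32 ± 0.30 in spontaneous tumors, 2.49-fold (limma adjusted p = 0.00374), and by 1.43 ± 0.27 in treated tumors, 2.7-fold (limma adjusted p = 0.000727). Treated replicate 3 was the highest at 12.4, and without it the treated difference was 1.15. The mean of 8 alveolar macrophage markers was 8.03 to 10.1 in control, 10 to 10.86 in spontaneous and 9.29 to 11.37 in treated arrays, and 4 of the 8 rose in each tumor group, while Car4 fell in treated tumors by 0.96 (limma adjusted p = 0.0277). Of 9 general macrophage and monocyte markers, with a mean of 8.7 to 10.39 in control, 9.59 to 10.77 in spontaneous and 9.48 to 10.65 in treated arrays, 2 rose in spontaneous tumors, Cd14 and Ms4a7. In treated tumors Cd14 rose and Csf1r fell, by 0.77. The part of macrophages in the Hmox1 difference was not tested.

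Me1 (chr9:86581363-86695914) encodes cytosolic malic enzyme 1, which makes NADPH from malate and is under lipogenic as well as NRF2 control. It showed the smallest adjusted p of the list in both tumor comparisons. Control replicates 1, 2, 3, 4 and 6 measured 9.31, 9.44, 9.09, 9.74 and 9.64, and spontaneous replicates 1 to 4 measured 10.66, 11.40, 11.17 and 11.82. Treated tumors ran from 10.66 to 11.37 with a median of 10.88, again with every tumor array above every control. Me1 rose by 1.82 ± 0.21 in spontaneous tumors, 3.53-fold (limma adjusted p = 1.54e-05), and by 1.52 ± 0.19 in treated tumors, 2.87-fold (limma adjusted p = 2.17e-05). Its other probe set also rose in both, by 2.1 and 1.91.

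Slc7a11 (chr3:50364936-50499087) encodes xCT, the cystine importer that supplies cysteine for glutathione. It measured 5.75, 4.88, 4.19, 5.21 and 5.31 in control replicates 1, 2, 3, 4 and 6 and 4.87, 6.5, 6.92 and 5.64 in spontaneous replicates 1 to 4. Treated replicates 1 to 6 measured 4.70, 8.26, 8.72, 6.43, 7.50 and 5.79. Replicate 1 lay within the control range, replicate 6 stood barely above it, and the other 4 lay higher. Slc7a11 rose in treated tumors by 1.83 ± 0.62, 3.56-fold (limma adjusted p = 0.0291; exact permutation p = 0.0433), the largest rise of the list in that comparison. The control values of 4.19 to 5.75 are low, and whether they were above background was not tested, so the fold change is uncertain. Its mean over the 15 arrays lay above that of 29.2% of all genes. In spontaneous tumors the difference was 0.92 ± 0.69 (limma adjusted p = 0.334). The second probe set of Slc7a11 rose by 1.86 in treated tumors (limma adjusted p = 0.0297). The call was lost without any one of control replicates 2 or 3 or treated replicates 2, 3 or 5, where the difference was 1.47 to 1.79 and the limma adjusted p 0.0541 to 0.0772. The SD among treated tumors was 1.54, larger than that of 99.4% of all genes in that group.

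Glutamate-cysteine ligase, the enzyme that limits the rate of glutathione synthesis, has a catalytic subunit, Gclc (chr9:77754535-77794489), and a modifier subunit, Gclm (chr3:122245487-122267215), which makes the catalytic subunit more efficient. Gclm measured 9.66, 8.88, 8.84, 9.66 and 8.67 in control replicates 1, 2, 3, 4 and 6 and 8.05, 8.26, 8.23 and 8.47 in spontaneous replicates 1 to 4. Treated tumors ran from 8.18 to 9.37 with a median of 9.1, within the control range or below it. Gclm fell in spontaneous tumors by 0.89 ± 0.27 on the log2 scale (limma adjusted p = 0.0197), with no overlap with the controls. It was -0.27 ± 0.24 in treated tumors (limma adjusted p = 0.425). The second Gclm probe set was not called in spontaneous tumors (-0.31 ± 0.24, limma adjusted p = 0.344). The spontaneous call was also lost without control replicate 1, control replicate 4 or spontaneous replicate 1, where the limma adjusted p was 0.0507 to 0.0548, and with the Y-linked covariate (limma adjusted p = 0.0913). The limit of that covariate is given beside Nqo1.

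Gclc was not called in either tumor group over the 15 arrays without a covariate. It measured 11.65, 11.09, 11.18, 11.81 and 11.54 in control replicates 1, 2, 3, 4 and 6 and 10.63, 12.02, 11.82 and 11.50 in spontaneous replicates 1 to 4. Treated tumors ran from 11.68 to 12.66 with a median of 11.8, above 4 or all of the 5 controls in every case. The differences were 0.04 ± 0.27 in spontaneous tumors (limma adjusted p = 0.93) and 0.50 ± 0.24 in treated tumors (limma adjusted p = 0.12), where the exact permutation p, not adjusted, was 0.0303. With the actin 3′ minus 5′ difference as a covariate Gclc was called in treated tumors, at 0.57 (limma adjusted p = 0.046), and with the Y-linked covariate it was 0.82 and not called (limma adjusted p = 0.0575). Spontaneous replicate 1 was the lowest array of all 15 for this subunit.

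Gsr (chr8:33653238-33698162) encodes glutathione reductase, which returns oxidized glutathione to its reduced form with NADPH. It measured 11.49, 11.30, 11.17, 11.70 and 11.63 in control replicates 1, 2, 3, 4 and 6 and 11.11, 11.46, 11.38 and 11.51 in spontaneous replicates 1 to 4. Treated replicates 1 and 6 measured 11.34 and 11.30, within the control range, and replicates 2 to 5 measured 12.01, 12.15, 12.12 and 12.14, above all other arrays. The treated difference of 0.38 ± 0.18 was not called (limma adjusted p = 0.104), nor was the spontaneous difference of -0.09 ± 0.20 (limma adjusted p = 0.75). Without treated replicate 1 or 6 the treated difference was 0.48 or 0.49 and was called (limma adjusted p = 0.036 and 0.03).

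Txnrd1 (chr10:82833951-82897724) encodes thioredoxin reductase 1, a selenoprotein that reduces thioredoxin with NADPH. It measured 11.11, 10.29, 10.57, 11.37 and 10.95 in control replicates 1, 2, 3, 4 and 6 and 11.24, 11.05, 11.08 and 11.07 in spontaneous replicates 1 to 4. Treated tumors ran from 10.65 to 11.92 with a median of 11.63, with replicates 1 and 6 inside the control range and the other 4 above it. The treated difference of 0.59 ± 0.23 missed the threshold (limma adjusted p = 0.0526; exact permutation p = 0.0693). Of its 3 probe sets, the other 2 rose, by 0.74 (limma adjusted p = 0.0136) and 0.6 (limma adjusted p = 0.0289). Without control replicate 4, treated replicate 1 or treated replicate 6 the probe set used was called too, at 0.67 to 0.75. In spontaneous tumors the difference was 0.25 ± 0.25 (limma adjusted p = 0.48).

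Srxn1 (chr2:152105524-152111376) encodes sulfiredoxin, which restores peroxiredoxins that hydrogen peroxide has overoxidized. Control replicates 1, 2, 3, 4 and 6 measured 9.29, 8.93, 8.47, 9.26 and 9.04, and spontaneous replicates 1 to 4 measured 8.03, 9.22, 9.45 and 8.92. Treated replicates 1 to 6 measured 8.57, 9.97, 10.38, 10.70, 9.47 and 8.27. Replicate 6 lay below all controls, replicate 1 among them and replicates 2 to 5 above them. The treated difference was 0.56 ± 0.40 (limma adjusted p = 0.296) and the spontaneous difference -0.09 ± 0.44 (limma adjusted p = 0.895). All 4 Srxn1 probe sets lay above 0 in treated tumors, at 0.4 to 0.56, and none was called.

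**Figure D2:**
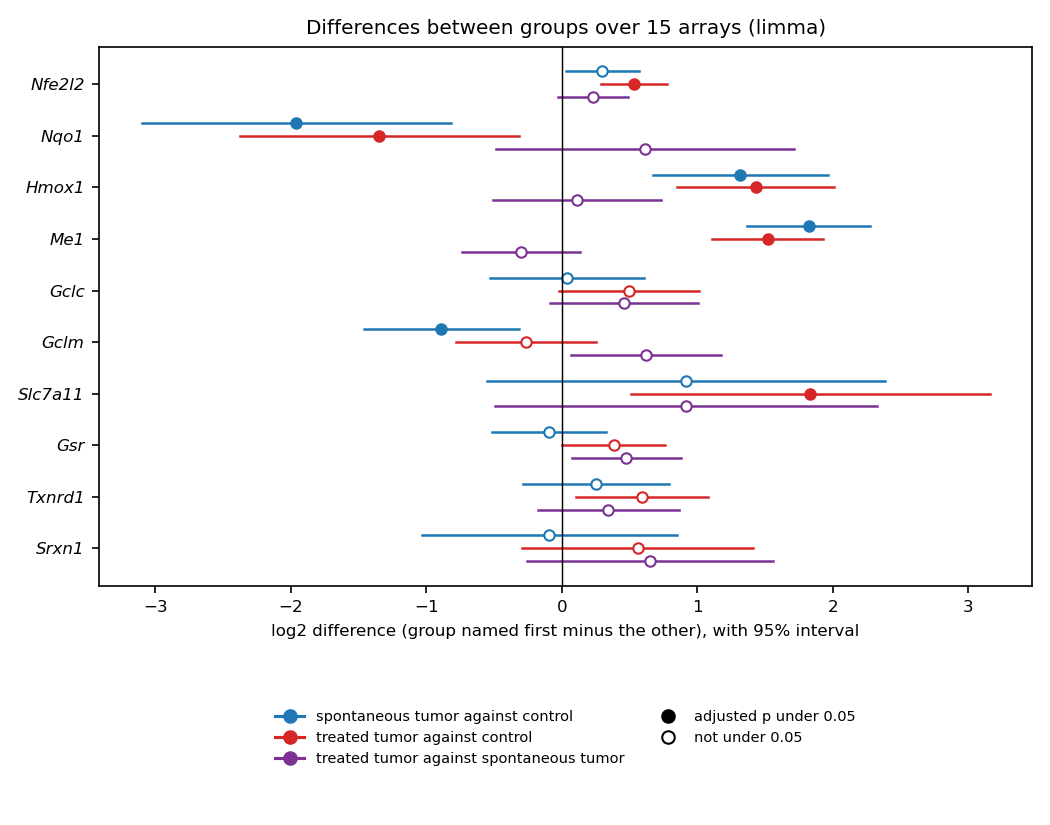
Log2 difference (horizontal axis) with its 95% confidence interval for each of the 10 genes (vertical axis) in the 3 comparisons of the limma fit over 15 arrays; filled points have an adjusted p under 0.05. In treated against spontaneous tumors all points are open and 9 of 10 lie to the right of 0, with Me1 to the left.

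**Figure D3:**
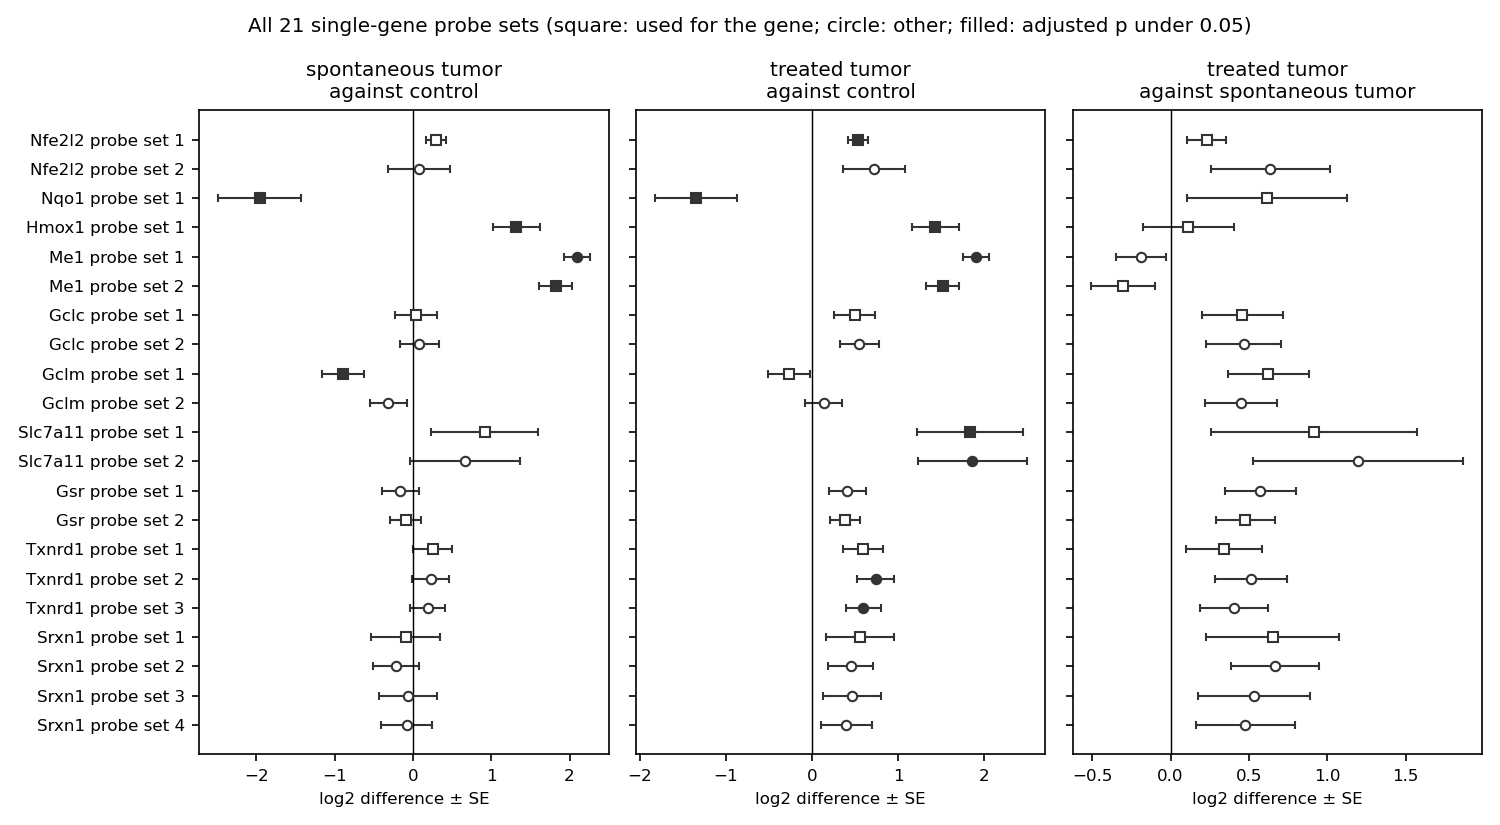
Log2 difference ± SE (horizontal axis) of all 21 probe sets of the 10 genes (vertical axis) in the 3 comparisons (panels, each with its own scale); squares are the probe sets used, circles the others, and filled symbols have an adjusted p under 0.05 over all probe sets. In treated tumors against control the 2 probe sets of Gclm lie on opposite sides of 0, at -0.27 and 0.14, and 2 of the 3 probe sets of Txnrd1 are filled.

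In spontaneous tumors 4 of the 10 genes were without overlap with the controls, the same 4 that were called, where 29.2% of all genes were. In treated tumors Hmox1, Me1 and Nfe2l2 were without overlap, 3 of the 10 genes and all higher, where 24.4% of all genes were, and 14.4% in the higher direction. Of the 10 genes, 8 had a mean above the median of all genes, and Nqo1 and Slc7a11 lay below it. Both had been called in treated tumors, and a filter at that median would have removed them.

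The comparison of treated with spontaneous tumors asks whether tumors from exposed mice differ from tumors that arose without a stated exposure. No gene of the list was called, with limma adjusted p-values from 0.488 to 0.94. Of the 10 differences 9 were above 0, as were 45.4% of those of all genes, and the median was 0.47 against -0.02 over all genes. The genes are not independent of one another, and treated replicates 1 and 6 lay within or below the spontaneous range for Gclm, Slc7a11, Gsr, Txnrd1 and Srxn1. The largest difference was that of Slc7a11 at 0.92 ± 0.66, with a 95% interval of -0.49 to 2.33. Srxn1 at 0.65 ± 0.43 had an interval of -0.26 to 1.56 and Nqo1 at 0.61 ± 0.52 one of -0.48 to 1.71.

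Gclm at 0.62 ± 0.26 and Gsr at 0.48 ± 0.19 had intervals above 0, of 0.07 to 1.18 and 0.07 to 0.88, but did not pass the adjustment (limma Benjamini-Hochberg adjusted p = 0.519 and 0.488). Their exact permutation p was 0.0619 and 0.0857. An unadjusted p under 0.05 was found for these 2 of 10 genes and for 8.6% of all genes, and no gene of the list reached 0.05 in the exact permutation test. The differences of Gclc (0.46, interval -0.09 to 1.01), Txnrd1 (0.34, interval -0.18 to 0.86) and Nfe2l2 (0.23, interval -0.03 to 0.49) were smaller. Hmox1 differed by 0.11 (interval -0.51 to 0.73) and turned to -0.16 without treated replicate 3. Me1 was the one gene below 0, at -0.30 (interval -0.74 to 0.13). These intervals leave room for differences of more than 1 log2 unit in 5 of the genes, Slc7a11, Nqo1, Srxn1, Gclm and Gclc, so the tumor groups are not shown to be alike.

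**Figure D4:**
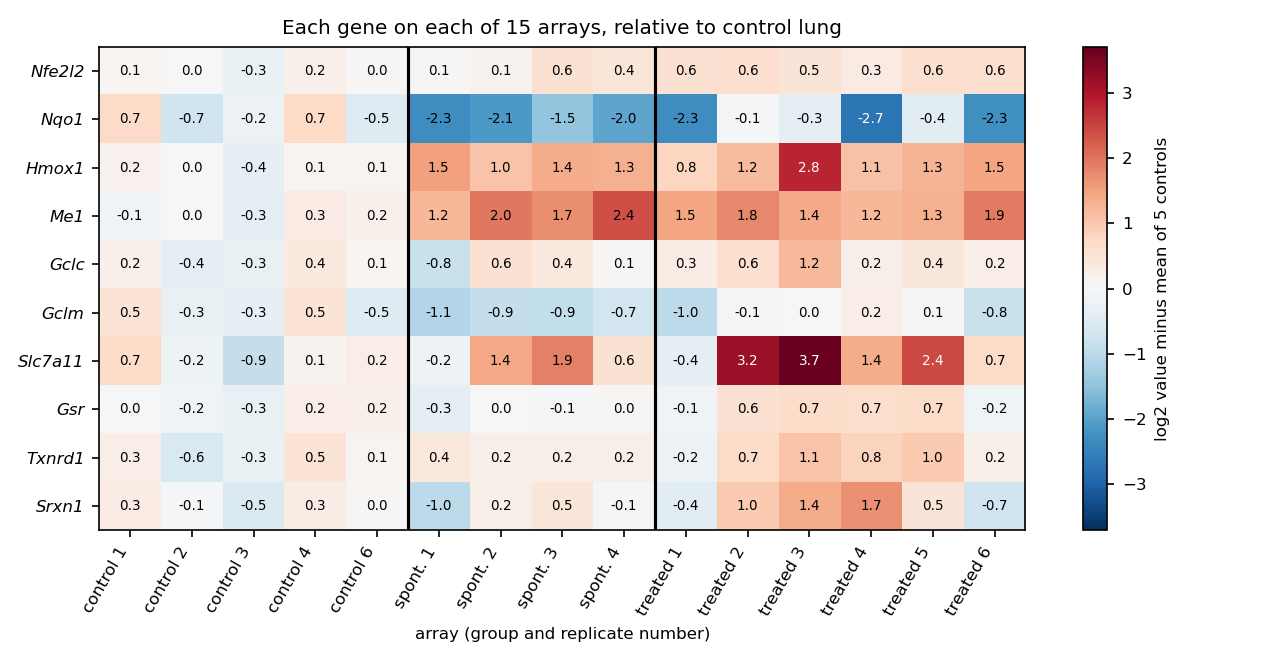
Log2 value minus the mean of the 5 controls (colour and printed number) for the 10 genes (rows) on each of the 15 arrays (columns, by group and replicate number). Treated replicates 2 and 3 are at 3.2 and 3.7 for Slc7a11, while treated replicate 1 is at -0.4, and Nqo1 is at -2.3 or lower in treated replicates 1, 4 and 6.

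The treated tumors were not uniform. Replicates 1 and 6 were the 2 lowest treated arrays for 5 of the 10 genes, Gclm, Slc7a11, Gsr, Txnrd1 and Srxn1. Replicates 2, 3 and 5 each exceeded all controls in 8 genes, replicate 4 in 7, replicate 6 in 4 and replicate 1 in 3. No such count over all genes was made for single arrays, and 23.7% of all genes were called higher in treated tumors. These counts therefore compare the treated arrays with one another and do not set the list apart from other genes. Replicate 4 departed from replicates 2, 3 and 5 in Nqo1, where it was the lowest treated array, and was the highest for Gclm and Srxn1. It also stood apart in Xist, the transcript of the inactive X chromosome, at 8.18 against 4.46 to 5.25 in the other treated arrays, and the mean of its Y-linked genes, 9.18, lay within their range. Any bearing of this on the 10 genes was not tested. For Hmox1, Me1 and Nfe2l2 replicates 1 and 6 did not stand together at the low end: replicate 6 was the highest treated array for Me1 and Nfe2l2.

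The SD within the treated group was 1.54 for Slc7a11, 1.2 for Nqo1, 0.98 for Srxn1 and 0.72 for Hmox1, against a median of 0.25 over all genes in that group. That of Nfe2l2 was 0.12, and it was the one gene of the list below that median. Treated replicate 1 also had the highest mean of the alveolar macrophage markers, 11.37, and a Gapdh 3′ minus 5′ difference of 1.97, the highest among tumor arrays. It was the lowest treated array for Hmox1, at 10.38, while replicate 3, at 10.42 for these markers, was the highest, at 12.4. Treated replicate 6 stood at 10.08 for the macrophage markers, inside the range of replicates 2 to 5 (9.29 to 10.42). Its Gapdh difference, 1.15, was also inside their range (1.09 to 1.43). The exposure level of each mouse is not known here.

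Control arrays differed among themselves in the same genes. Replicates 1 and 4 were the 2 highest controls for 6 of the 10 genes, and replicates 2 and 3 the 2 lowest for 7. The SD among controls exceeded the median of all genes, 0.21, in 9 of the 10 genes, Nfe2l2 being the exception. Spontaneous replicate 1 was the lowest array of its group for 8 genes, and the highest for Hmox1 and Txnrd1. The order of arrays was not counted over all genes, so these counts do not set the list apart from other genes.

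Profiles nearest to the 3 genes with the largest treated differences were sought over the 15 arrays by the root mean square difference of log2 values, after each gene's own mean was taken off. For Slc7a11 they were Ckmt1 at 0.66, Ovgp1 at 0.75 and Crisp2 at 0.75, where Slc7a11 itself varied by 1.29 about its mean. For Me1 they were Gys1 at 0.27, Ly6g6e at 0.29 and Garem1 at 0.29, where Me1 varied by 0.84. For Hmox1 they were Hapln1 at 0.33, Mpzl3 at 0.34 and Prpf18 at 0.34, where Hmox1 varied by 0.79. No gene of the list was among these, and the arrays of a group are shared by all of them.

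A further 57 genes of the pathway were listed by role, of which 51 were measured. Ggt1, Prdx1, Prdx5, Prdx6, G6pdx and Ftl1 had no probe set with a single symbol and were not analysed here. In spontaneous tumors 11 of the 51 rose and 8 fell, where 20.1% of all genes rose and 12.9% fell. In treated tumors 18 rose and 8 fell, where 23.7% of all genes rose and 15% fell. The counts by role below are to be read against these shares, and no role was tested as a whole. None was called between the tumor groups. The median difference was 0.06 in spontaneous and 0.15 in treated tumors.

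**Figure D5:**
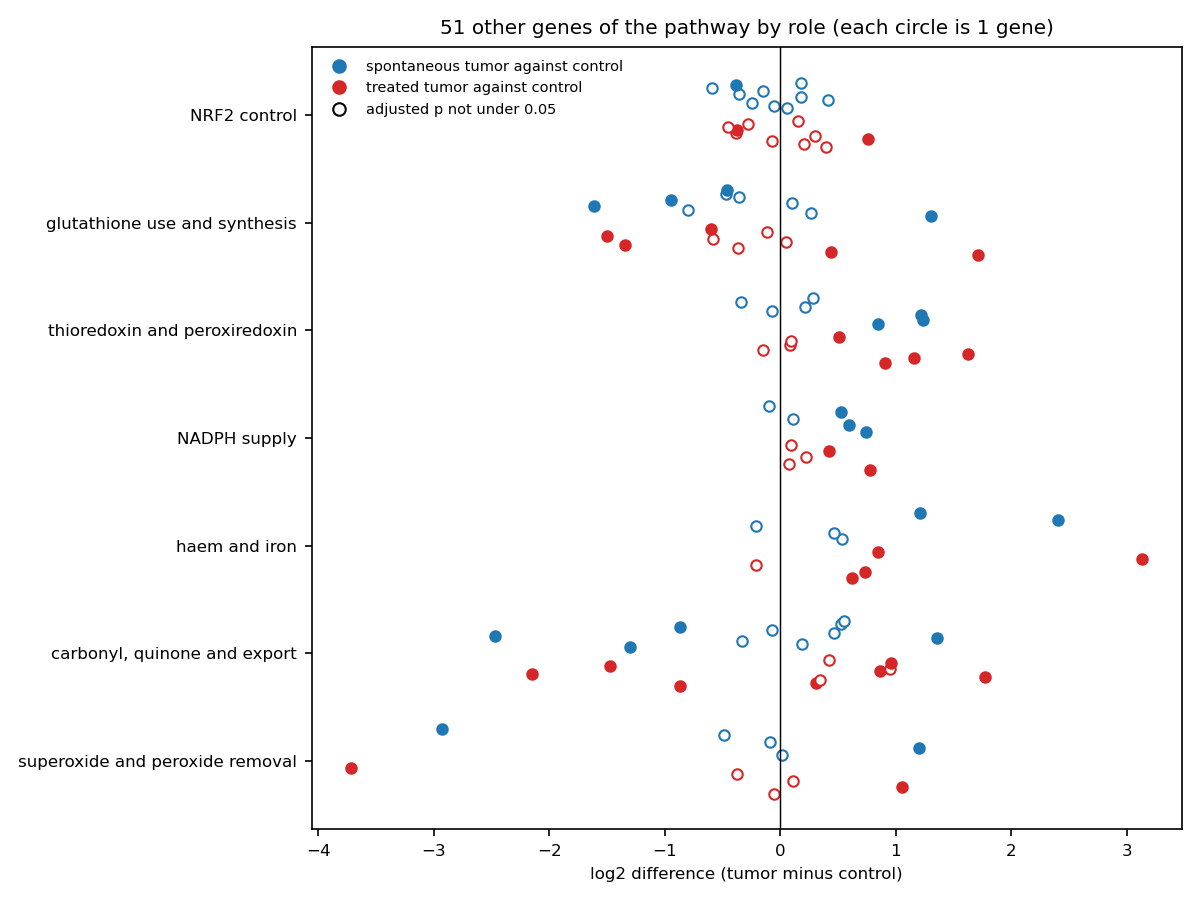
Log2 difference from control (horizontal axis) of the 51 other pathway genes, each a circle, by role (vertical axis), in spontaneous and treated tumors; filled circles have an adjusted p under 0.05 in limma. The haem and iron genes and the thioredoxin and peroxiredoxin genes that were called all lie to the right of 0, and Sod3 is the farthest to the left in both groups, at -2.93 and -3.72.

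Of the 10 genes listed under NRF2 control, which include its relatives Nfe2l1 and Nfe2l3, 1 was called in spontaneous and 2 in treated tumors. Over all genes 33% and 38.7% were. Keap1, its inhibitor, and Cul3, the ubiquitin ligase scaffold that works with KEAP1, were not called in any comparison. Among the others, Rbx1, a further part of that ligase, fell in spontaneous tumors by 0.38 (limma adjusted p = 0.0484). In treated tumors Maff, which encodes a small MAF partner, rose by 0.76 (limma adjusted p = 0.033) and the NRF2 relative Nfe2l1 fell by 0.37 (limma adjusted p = 0.0225).

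Among 9 measured genes of glutathione use and synthesis, the called ones went both ways. Glrx, a glutaredoxin that reduces glutathione-protein disulfides, rose by 1.30 ± 0.24 in spontaneous and 1.71 ± 0.22 in treated tumors. Gpx1, the main cytosolic glutathione peroxidase, rose in treated tumors by 0.44. Gpx3, the secreted glutathione peroxidase, fell by 1.61 and 1.34 on the log2 scale in spontaneous and treated tumors. Slc3a2, the heavy chain that pairs with Slc7a11 in the cystine importer, fell by 0.46 in spontaneous and by 0.60 in treated tumors (limma adjusted p = 0.0359 and 0.00381). Gpx7 fell in spontaneous tumors by 0.94 and Gpx8 in treated tumors by 1.5.

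All 3 measured peroxiredoxins, peroxidases that thioredoxin recharges, rose in both tumor groups. Prdx2 rose by 0.84 and 0.90, Prdx3 by 1.23 and 1.15 and Prdx4 by 1.22 and 1.62 in spontaneous and treated tumors (limma adjusted p at most 0.0081 for each). Txnrd2, the mitochondrial thioredoxin reductase, rose in treated tumors by 0.51 (limma adjusted p = 0.0189). The other measured genes of this role, 4 in spontaneous and 3 in treated tumors, were not called.

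Of 5 measured NADPH genes, Taldo1 and Idh1 rose in both tumor groups, Taldo1 by 0.53 and 0.42 and Idh1 by 0.75 and 0.78, and Idh2 rose in spontaneous tumors by 0.60. Taldo1 is an enzyme of the pentose phosphate pathway, and the isocitrate dehydrogenases make NADPH in cytosol and mitochondria.

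The haem and iron genes included the largest rise of the pathway. Slc40a1, which encodes ferroportin, the exporter of iron from cells, was 7.25 to 7.97 in control, 8.68 to 11.72 in spontaneous and 9.3 to 11.57 in treated arrays, with no overlap with control in either group. It rose by 2.4 ± 0.53 (limma adjusted p = 0.00296) and 3.14 ± 0.48 (limma adjusted p = 0.000121). Tfrc, the transferrin receptor that brings iron in, rose by 1.21 and 0.85. Blvra, the biliverdin reductase that acts after haem oxygenase, and Blvrb, biliverdin reductase B, rose in treated tumors by 0.62 and 0.73. Ferroportin is abundant in macrophages, whose marker levels, with those that fell, are given beside Hmox1, and their part in this rise was not tested.

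Among 10 genes of carbonyl and quinone metabolism and export, Abcc4, an efflux pump, rose by 1.36 and 1.77 in spontaneous and treated tumors. Cbr1, a carbonyl reductase, rose by 0.87 and Osgin1, an oxidative stress responsive growth inhibitor, by 0.96 in treated tumors. The pump Abcc2, called in treated tumors at 0.31, measured only 4.37 to 5.18 on the 15 arrays, and whether it was above background was not tested. Aldh3a1, an aldehyde dehydrogenase, was 6.08 to 9.36 in control arrays and 5.46 to 6.87 in the tumors, and fell by 2.47 and 2.15. Ephx1, microsomal epoxide hydrolase, fell by 0.87 and 1.47, and the pump Abcc1 by 1.30 and 0.87. Of these genes Aldh3a1 and Ephx1 are known for expression in airway epithelium, whose ciliated and club markers fell as given beside Nqo1, and the part of those cells was not tested.

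Of 5 genes for the removal of superoxide and peroxides, Sod3 and Msrb1 were called. Sod3, the extracellular superoxide dismutase, was 11.83 to 11.96 in control, 8.36 to 9.87 in spontaneous and 6.65 to 9.15 in treated arrays. It fell by 2.93 ± 0.46 (limma adjusted p = 0.0002) in spontaneous tumors and fell by 3.72 ± 0.41 in treated tumors (limma adjusted p = 6.64e-06). Over the same arrays the mean of 8 fibroblast and smooth muscle markers was 11.07 to 11.47 in control, 7.58 to 8.14 in spontaneous and 7.12 to 8.17 in treated arrays, with 6 of 8 lower in each tumor group and Col1a1 higher in treated tumors. That of 7 alveolar type 1 markers was 12.09 to 12.45, 10.26 to 11.37 and 9.51 to 11.36, with 5 and 4 lower. The part of these cells in the Sod3 difference was not tested. Msrb1, a selenoprotein that repairs oxidized methionine, rose by 1.2 and 1.05.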

How the data were processed

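RNA of mouse lung and lung tumors was amplified from 100 ng and hybridized to Affymetrix 3′ expression arrays, per the labels' protocols. RMA, per the submitters' processing notes, gave the log2 values that the authors deposited. RMA corrects background, normalizes arrays together and joins probes into probe sets, so arrays of low quality can shift the others. The depth of an array is not a count, and the number of arrays limits the precision.

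Of 45101 probe sets, 34945 carried 1 gene symbol. Each gene was represented by its brightest probe set, judged by the mean of all 18 arrays and blind to the groups, which gave 18193 genes. The 3 group means were fitted to 15 arrays with limma 3.58.1 in R 4.3.3, and p-values were adjusted by Benjamini-Hochberg over all genes of a comparison. Calls are at an adjusted p under 0.05. Exact permutation tests are 2-sided over the arrays of the 2 groups, and the smallest p they allow is 0.00794 for spontaneous tumors against control, 0.00216 for treated tumors against control and 0.00476 between the tumor groups. The fit was tested on simulated data. Alternatives covered the arrays used, normalization, filtering, choice of probe set, variance model, covariates and single arrays left out.

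The 10 genes and the lists of pathway and marker genes were chosen with earlier results of these data known. All 10 genes are named, with up to 3 called pathway genes of the smallest p per role and comparison, and others where a role has few called. Promoter windows and gene positions are those of RefSeq on GRCm38.p6, and gene names are those of the platform's annotation. Raw image files were not analysed here.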

Additional observations from a re-analysis of the deposited data

Results flagged for a closer look

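Within a group, an array was picked out when its gap to the nearest other array was large for the range of the group (Dixon's criterion at 95%). For the 10 genes in 3 groups, 30 sets of values were examined, chance picks out about 1 in 20, and 2 were. Hmox1 in treated replicate 3 was 12.4, the highest of the 6 treated tumors. Txnrd1 in spontaneous replicate 1 was 11.24, the highest of the 4 spontaneous tumors, whose others lay between 11.05 and 11.08.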

How the results depend on the processing

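With all 18 arrays, 0 of the 10 genes were called in spontaneous tumors and 0 in treated tumors, against 4 and 5 over 15 arrays. Array weights over all 18 arrays, which gave the 3 outlying arrays weights of 0.022 to 0.028, gave 4 and 6. With all 18 arrays the spontaneous differences were -1.6 for Nqo1, -1.07 for Gclm, 0.34 for Hmox1 and 1.04 for Me1, and the treated ones -1.16 for Nqo1, 1.7 for Hmox1, 1.3 for Slc7a11, 1.75 for Me1 and 1.11 for Nfe2l2. With the mean of 4 Y-linked genes as a covariate, 2 were called in spontaneous tumors, whose arrays did not overlap with control arrays in that mean. Leaving out 1 array at a time gave 3 to 4 calls in spontaneous tumors, 3 to 6 in treated tumors (3 without control replicate 3) and 0 between the tumor groups. No gene of the list was called between the tumor groups under any alternative run.

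Direction turned 14 times, in values that were not called. In spontaneous tumors Gclc was -0.0115 with quantile normalization and as low as -0.14 with 1 array left out, when it ranged up to 0.33. Srxn1 there was 0.0269 with array weights, 0.0259 with array weights over all 18 arrays, 0.32 with the Y-linked covariate and 0.199 without spontaneous replicate 1, the highest with 1 array left out, the lowest being -0.27. Gsr there was 0.03 with the Y-linked covariate and Nfe2l2 -1.18 with all 18 arrays. Gclm in treated tumors was 0.18 with all 18 arrays. Between the tumor groups Me1 was 0.71 with all 18 arrays, and Hmox1 ran from -0.16, without treated replicate 3, to 0.24 with 1 array left out, and was 0.29 with the Y-linked covariate and 1.36 with all 18 arrays. The cause of these turns was not tested.

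No sign was seen that replicate numbers pair the arrays, on which the labels are silent. Deviations from the group means were correlated between arrays of different groups. Over 13 pairs with the same number the median was -0.02, with a range of -0.149 to 0.295, and 2 exceeded 0.1. Over 61 pairs with different numbers the median was 0.007, and 15 exceeded 0.1. With so few arrays this does not exclude pairing. With the replicate number as a block, 4, 4 and 0 genes of the list and 5760, 6407 and 0 of all genes were called in the 3 comparisons, and Slc7a11 in treated tumors was 1.71 (limma adjusted p = 0.0612).

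Over all genes the counts of 5995, 7043 and 10 became 746, 1353 and 0 with all 18 arrays and 2407 and 2580 in the first 2 comparisons at a log2 difference of at least 1. Tested singly, 11007 and 13119 probe sets were called. Among genes above the median mean 4648 were called in treated tumors, and 4325 with the Y-linked covariate. Between the tumor groups the count ran from 0 to 36. With 4 to 6 arrays a group, the median standard error over all genes was 0.15 to 0.17.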
